A study of Mus musculus with 6 samples.

Results

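The Myc, Max and Mxd network was examined through every probe whose platform annotation names Myc, Mycn, Mycl, Max, Mxd1, Mxd3, Mxd4, Mxi1, Mnt or Mga: 13 probes for 10 genes, of 25697 probes for 16593 genes. Myc, Max and Mnt had more than 1 probe each and the other genes had 1. The cultures were 4 iPS cell lines, OG2 ES cells that carry an Oct4-GFP reporter, and FAH-/- mouse embryonic fibroblasts (MEFs), with 1 Illumina mouse-8 V2 array per culture. FAH-/- mice lack fumarylacetoacetate hydrolase, the last enzyme of tyrosine breakdown. The FAH-/- iPS cell lines #4 and #7 were made from fetal FAH-/- fibroblasts with pMX retroviruses carrying Oct4, Sox2, Klf4 and c-Myc, and FAHgc-iPS cells (#7.1 and #7.2) are subclones of #7 that also carry a lentiviral FAH and EGFP cassette driven by the SFFV viral promoter. All 4 iPS cell lines therefore carry the FAH-/- genotype of the fibroblasts and a c-Myc vector, and 3 of the 4 share one derivation. Whether the 2 Myc probes lie within the vector's cDNA is not known, and these arrays alone do not separate endogenous from vector Myc.

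Myc, Mycn and Mycl are basic helix-loop-helix transcription factors that bind the E-box CACGTG only as dimers with Max, and they recruit acetyltransferase complexes to promoters of growth, ribosome and metabolism genes. Mxd1, Mxd3, Mxd4, Mxi1 and Mnt compete for Max at the same sites and bring in Sin3 and histone deacetylases. Mga, the largest protein of the family, joins Max in a Polycomb complex that silences germ cell genes in mouse ES cells. In mouse pluripotent cells Myc and Mycn are known to support self-renewal with overlapping functions, and Mycl can replace Myc in reprogramming.

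A signal counted as above background where it exceeded the array's background by 2.326 times the noise SD, and between 45.8% and 48.6% of all probes did so on each array. Of the 13 probes, 5 were above background on all 6 arrays (Mycl, both Max probes, Mxi1 and Mga), 5 on some arrays and 3 on none (the first Myc probe, Mycn and Mxd1). The cultures carried the markers of their labels. Compared with the MEFs, the iPS cell lines had all 8 pluripotency markers called higher and all 10 fibroblast markers called lower. The pluripotent cultures are kept on MEF feeder cells, and the summed signal of the fibroblast markers over background in the iPS cell lines was between 1.69% and 2.55% of that in the MEFs, and in the ES cells 1.31%. Of these markers, 7 or 8 of 10 were above background in each iPS cell line and 8 in the ES cells. Col1a2 and Pdgfrb were at background in all 5 cultures, and Col1a1, Col3a1, Dcn, Lox, Lum, Thy1 and Twist2 were above it in all 5. Signals are given as normalized log2 intensities, which can be compared between cultures but not between probes. In such bulk samples fewer cells with a transcript and less transcript per cell cannot be told apart.

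**Figure D1:**
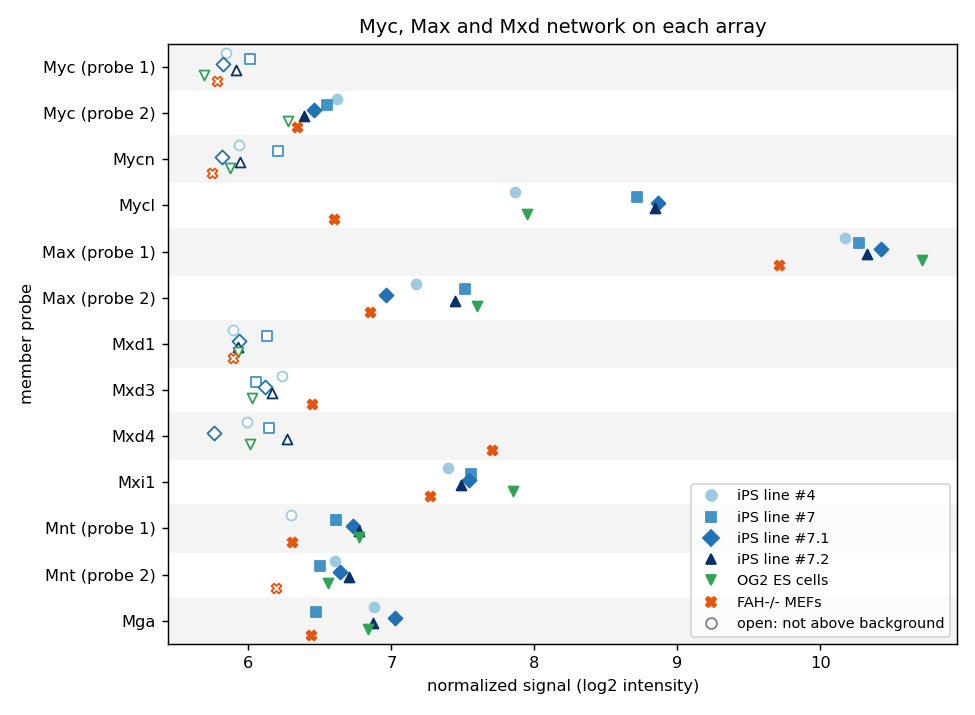
Normalized log2 intensity (horizontal axis) of the 13 member probes (rows) in the 4 iPS cell lines, the OG2 ES cells and the FAH-/- MEFs, 1 point per array, with open symbols where the signal was not above background. Mycl separates the pluripotent cultures, at 7.87 to 8.86, from the MEFs at 6.60, and Mxd4 is above background in the MEFs alone, at 7.70.

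Of the 3 Myc paralogs, Mycl was the one whose probe was above background in every culture, and all iPS cell lines exceeded the MEFs. Its log2 signals were 7.87, 8.72, 8.86 and 8.84 in lines #4, #7, #7.1 and #7.2, against 7.95 in the ES cells and 6.60 in the MEFs. The 3 lines of the #7 derivation were the highest cultures, the ES cells and line #4 came next, closer together than the spread of the lines, and the MEFs were the lowest. The difference between the iPS cell lines and the MEFs was 1.98 on the log2 scale, or 3.93-fold (SE 0.30, 95% interval 1.32 to 2.63, limma adjusted p = 0.000122, with 4 of 4 lines above the MEFs). The fit used all probes, with Benjamini-Hochberg adjustment, and a call needed an adjusted p under 0.05 and at least a 2-fold difference. Mycl lay 26.8 to 64.5 noise SDs above background in the iPS cell lines, against 25.8 in the ES cells and 5.99 in the MEFs. The ES cells alone exceeded the MEFs by 1.35, a difference of 2 single arrays that carries no test.

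Within the iPS cell lines, Mycl was the member with the widest spread (SD 0.47, n = 4). Line #7 lay 0.85 above line #4, and the subclones #7.1 and #7.2 lay 0.15 and 0.12 above their parent #7. Against the ES cells the 4 lines differed by 0.62 (SE 0.30, 95% interval -0.03 to 1.27, adjusted p = 0.296 from limma), which was not a call. Line #4 set this value, since without it the difference was 0.86, still under 2-fold, and the lines left all share the #7 derivation. The gene-corrected lines #7.1 and #7.2 exceeded the uncorrected lines #4 and #7 by 0.56 (SE 0.22, 95% interval 0.08 to 1.04, adjusted p = 0.955 from limma). The difference was 0.13 without line #4 and 0.99 without line #7. Each of those fits set both subclones of #7 against a single uncorrected line, so only the size is given.

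The genes whose profiles over the 6 arrays lay closest to that of Mycl, by Euclidean distance between mean-centred log2 profiles among 10681 genes, were Calb2 (distance 0.42), which encodes the calcium-binding protein calretinin, Fgf8 (0.45), a fibroblast growth factor of the early embryo, and Notum (0.47), an enzyme that inactivates Wnt ligands. Their likeness to Mycl follows from this selection. All of them were higher in the 3 lines of the #7 derivation than in line #4 and lowest in the MEFs. Their MEF signals were not above background, while that of Mycl was. Unlike Mycl, all of them were lower in the ES cells than in line #4. Fgf8 signals were 7.12, 7.71, 8.06 and 8.05 in lines #4, #7, #7.1 and #7.2, against 6.85 in the ES cells and 6.07 in the MEFs.

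The c-Myc gene Myc was close to background in every culture. Its first probe was not above background on any array, with log2 signals of 5.84, 6.01, 5.82 and 5.91 in lines #4, #7, #7.1 and #7.2, against 5.69 in the ES cells and 5.78 in the MEFs. Its second probe gave 6.62, 6.55, 6.46 and 6.39 in the same order of lines, against 6.28 in the ES cells and 6.34 in the MEFs, and was above background everywhere but in the ES cells. By the second probe every iPS cell line was higher than the MEFs and the ES cells, by small amounts. The difference was 0.16 against the MEFs (SE 0.15, 95% interval -0.16 to 0.48, adjusted p = 0.383 from limma) and 0.23 against the ES cells (SE 0.15, 95% interval -0.10 to 0.55, adjusted p = 0.464), and neither was called. The offset added to all signals narrows the differences of dim probes. Since the ES cells were at background for this probe, the measured difference from them is given as at least 1.11-fold. That bound leaves out the interval, which spans both directions. The signals reached 5.26 noise SDs above background in line #4, compared with 2.77 in the MEFs and 1.75 in the ES cells. The profiles nearest to this probe were those of Pyroxd1 (distance 0.07), an oxidoreductase, Spi1 (0.07), the blood cell factor PU.1, and Efcab2 (0.07), which encodes an EF-hand protein. These distances are small because the Myc profile itself spans only 6.28 to 6.62.

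Mycn, the paralog of neural progenitors and a gene known to be active in mouse ES cells, was not measured above background in any culture. Its log2 signals were 5.93, 6.20, 5.81 and 5.94 in lines #4, #7, #7.1 and #7.2, against 5.87 in the ES cells and 5.75 in the MEFs. A probe at background on every array gives no level for its gene. The probes of Dkc1, Phb, Nop16, Set and Cdkn1b, all of them known as widely expressed genes, were likewise at background on all 6 arrays. They were named after their values were seen, and those of Tert, Gas1 and Mlxip were at background too. Why the Mycn probe was at background was not tested.

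Max, the partner that all other members share, was above background everywhere by both probes. The first probe gave 10.17, 10.27, 10.43 and 10.33 in lines #4, #7, #7.1 and #7.2, against 10.71 in the ES cells and 9.71 in the MEFs. The second probe gave 7.18, 7.52, 6.96 and 7.45, against 7.60 in the ES cells and 6.85 in the MEFs. By either probe the ES cells were highest, the iPS cell lines were intermediate and the MEFs were lowest, with no overlap. Under median scaling, where each array is scaled to one median instead of quantile normalized, this order did not hold by the second probe, since line #7.1 (6.93) lay below the MEFs (7.02). The iPS cell lines exceeded the MEFs by 0.58 (SE 0.15, 95% interval 0.26 to 0.91, adjusted p = 0.00485 from limma), or 1.5-fold, by the first probe and by 0.42 (SE 0.20, 95% interval -0.01 to 0.85, adjusted p = 0.0913) by the second, both under the 2-fold threshold. With median scaling the differences were 0.32 (adjusted p = 0.143) and 0.21 (adjusted p = 0.369). Against the ES cells the differences were -0.41 (SE 0.15, 95% interval -0.74 to -0.08, adjusted p = 0.16) and -0.32 (SE 0.20, 95% interval -0.75 to 0.11, adjusted p = 0.431).

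**Figure D2:**
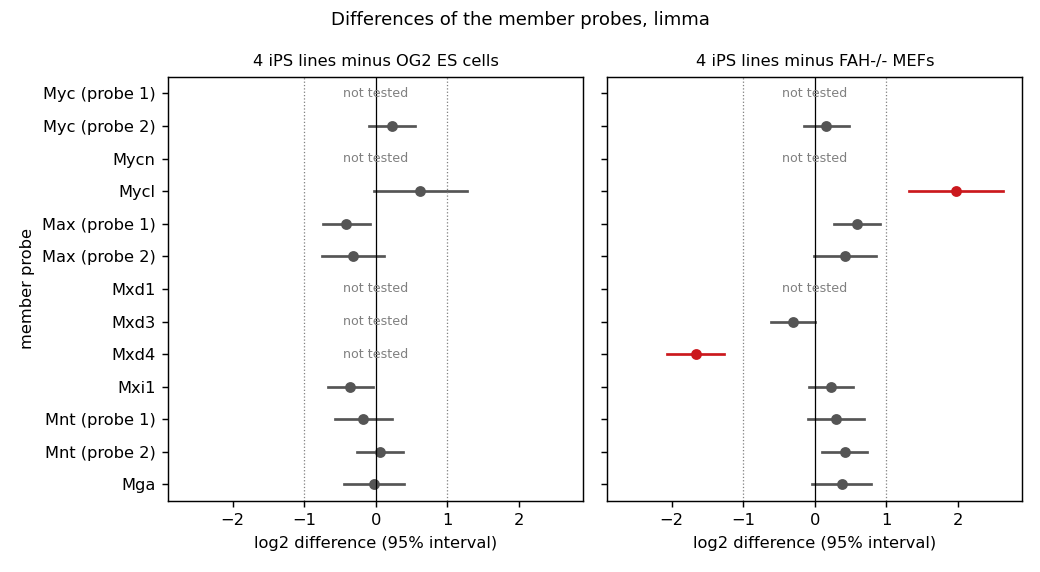
Log2 difference of the 4 iPS cell lines from the OG2 ES cells (left) and from the FAH-/- MEFs (right) for each member probe, with 95% intervals from limma, dotted lines at 2-fold and calls in red. Mycl (1.98) and Mxd4 (-1.67) are the calls, both against the MEFs, and no member probe is a call against the ES cells.

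Among the antagonists, Mxd4 showed the opposite pattern to Mycl. Mxd4 is a Mxd family member associated with cells that leave the cell cycle and differentiate. Its probe gave 5.99, 6.14, 5.76 and 6.27 in lines #4, #7, #7.1 and #7.2, against 6.01 in the ES cells and 7.70 in the MEFs. None of the 5 pluripotent cultures was above background, while the MEF signal lay 27.1 noise SDs above it. The log2 difference of the iPS cell lines from the MEFs was -1.67 (SE 0.18, 95% interval -2.06 to -1.27, limma adjusted p = 8.16e-06, with 4 of 4 lines below the MEFs). Counted against the lowest signal that was above background on each iPS array, the iPS cell lines had Mxd4 at least 2.61-fold lower. The iPS cell lines and the ES cells, both at background, have no order between them.

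Mxd3, which is known in proliferating cells unlike most of its family, was also above background in the MEFs alone. Its signals were 6.23, 6.06, 6.12 and 6.16 in lines #4, #7, #7.1 and #7.2, against 6.02 in the ES cells and 6.45 in the MEFs. The log2 difference of the 4 lines from the MEFs was -0.30 (SE 0.14, limma adjusted p = 0.091), a bound of at least 1.09-fold lower because all 4 lines were at background, and was not a call. Mxd1, the founding member of the Mxd family, was not above background in any culture, with signals of 5.89, 6.13, 5.93 and 5.92 in the same lines, against 5.93 in the ES cells and 5.89 in the MEFs.

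Mxi1, the antagonist also known as Mxd2, was above background in all cultures. It gave 7.40, 7.56, 7.54 and 7.49 in lines #4, #7, #7.1 and #7.2, against 7.85 in the ES cells and 7.27 in the MEFs, so that the iPS cell lines lay between the ES cells and the MEFs. The differences were 0.23 against the MEFs (SE 0.14, adjusted p = 0.198 from limma) and -0.36 against the ES cells (SE 0.14, 95% interval -0.67 to -0.04, adjusted p = 0.206). The direction against the MEFs was not settled by these data, since median scaling gave -0.04.

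Mnt, a broadly expressed antagonist that represses the same promoters in growing and resting cells, was weakly above background by both probes. The first probe gave 6.30, 6.61, 6.73 and 6.77 in lines #4, #7, #7.1 and #7.2, against 6.78 in the ES cells and 6.31 in the MEFs, and only line #4 was at background. The second gave 6.60, 6.50, 6.64 and 6.70, against 6.55 in the ES cells and 6.20 in the MEFs, where it was not above background. Both probes placed the MEFs at the low end, although line #4 lay at the MEF level by the first probe. The difference between iPS cell lines and MEFs was 0.29 by the first probe (SE 0.18, adjusted p = 0.196 from limma) and 0.42 by the second (SE 0.14, adjusted p = 0.0272), or at least 1.24-fold, under the 2-fold threshold.

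Mga, the scaffold of the Polycomb complex PRC1.6, was above background in all cultures. Its signals were 6.88, 6.47, 7.02 and 6.87 in lines #4, #7, #7.1 and #7.2, against 6.84 in the ES cells and 6.44 in the MEFs. Line #7 was near the MEFs, and both of its subclones were near line #4 and the ES cells. The differences were 0.37 against the MEFs (SE 0.19, limma adjusted p = 0.118) and -0.02 against the ES cells (SE 0.19, 95% interval -0.44 to 0.39, adjusted p = 0.968).

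Of the 10 member probes tested against the MEFs, 1 was called higher (Mycl) and 1 lower (Mxd4). Over all 15384 probes tested in that comparison, 24.6% were called, 12.5% higher and 12% lower, so that the members' share was not above that of all probes. With no fold threshold 4 member probes had an adjusted p under 0.05 (Mycl, Mxd4, the first Max probe and the second Mnt probe), beside 53.7% of all probes. The median difference of the member probes was 0.33, and of all probes 0.04. Of all calls against the MEFs 51% were higher, and with median scaling 36.6%.

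Against the ES cells none of the 8 member probes tested was called by limma, while 2 had an unadjusted p under 0.05 (the first Max probe and Mxi1), as did 18.4% of all probes. Among all 14620 probes tested in that comparison 0.992% were called, 0.383% higher and 0.609% lower. Of those calls 38.6% were higher, and with median scaling 56.7%. In the comparison of the gene-corrected lines #7.1 and #7.2 with the uncorrected lines #4 and #7, none of the 8 member probes tested was called, as was the case for all 14242 probes tested (0% called), and 1 member probe, that of Mycl, had an unadjusted p under 0.05, as did 4.66% of all probes. The smallest adjusted p among the members was 0.955, and the differences ran from -0.16 for Myc to 0.56 for Mycl.

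The proteins that the Myc and Max dimer recruits were examined next, with each gene given by its brightest probe. Of 18 tested coactivators (acetyltransferase complexes TIP60 and SAGA, Wdr5 and the elongation kinase), 7 were called higher and none lower against the MEFs, beside 13.4% called higher and 13.2% called lower over 10499 genes. Their median difference was 0.64, and that of all genes 0.03. Wdr5, a histone methyltransferase subunit that binds Myc, gave 10.16, 10.05, 10.48 and 10.26 in lines #4, #7, #7.1 and #7.2, against 10.70 in the ES cells and 7.54 in the MEFs. Its difference from the MEFs was 2.70 (SE 0.17, adjusted p = 7.39e-08 from limma). The ATPases Ruvbl2 and Ruvbl1 and the actin-related Actl6a, subunits of the TIP60 complex, were higher by 2.51, 1.98 and 1.86.

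The corepressors that the Mxd proteins and Mnt use had no call in the direction of Mxd4. Of 13 tested Sin3 and NCoR subunits, 3 were called higher and none lower, beside 13.4% higher and 13.2% lower over all genes. Their median was 0.50. Sap30, a Sin3 subunit, was higher by 2.51, Sin3a, the scaffold that Mxd proteins bind, by 1.68 and the deacetylase Hdac1 by 1.13. Sin3a gave 10.03, 10.40, 10.38 and 10.38 in lines #4, #7, #7.1 and #7.2, against 10.33 in the ES cells and 8.62 in the MEFs.

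The partners of Mga in PRC1.6 included the largest difference of these cofactor lists. Of 8 tested genes, 3 were called higher and none lower, with a median of 0.49, beside 13.4% higher and 13.2% lower over all genes. Pcgf6, the Polycomb ring finger protein that defines this complex, gave 10.40, 10.44, 10.53 and 10.57 in lines #4, #7, #7.1 and #7.2, against 10.53 in the ES cells and 7.54 in the MEFs, a difference from the MEFs of 2.95 (SE 0.14, adjusted p = 8.13e-09 from limma). L3mbtl2, its histone-binding subunit, was at background in the MEFs alone, and the iPS cell lines exceeded them at least 4.50-fold. Tfdp1, the dimer partner of E2f6, was higher by 1.5. On the lower side were 3 of the 8, all under 2-fold and named after their values were seen. They were Ring1 (-0.68, adjusted p = 0.00153 from limma), Yaf2 (-0.34) and E2f6 (-0.15). Mga itself was not a call.

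Of 11 germ cell genes that Max and Mga are known to silence in mouse ES cells, 7 were tested, 1 was called higher and none lower, a share close to the 13.4% called higher over all genes. Their median difference from the MEFs was 0.61, beside 0.03 for all genes, and 6 of the 7 were on the higher side. Stag3, a meiotic cohesin subunit, gave 8.07, 7.93, 8.12 and 8.19 in lines #4, #7, #7.1 and #7.2, against 7.99 in the ES cells and 6.40 in the MEFs, a difference from the MEFs of 1.67 (SE 0.15, adjusted p = 1.3e-06 from limma). Ddx4, Taf7l and Stk31 were near background in the pluripotent cultures and not above it in the MEFs. Taf7l, a germ cell subunit of TFIID, reached 6.39 to 6.78 in the iPS cell lines, against 6.72 in the ES cells and 5.84 in the MEFs. Tdrkh, a piRNA pathway gene, lay on the other side, at 6.40, 6.19, 6.44 and 6.41 in lines #4, #7, #7.1 and #7.2, against 6.20 in the ES cells and 7.02 in the MEFs, a difference from the MEFs of -0.66 that was under 2-fold (limma adjusted p = 0.00239). Dazl and Zcwpw1 were above background in all iPS cell lines and the ES cells. They exceeded the MEFs by 0.555 and 0.644 (adjusted p = 0.0139 and 0.013 from limma), under 2-fold. Dazl, Zcwpw1, Ddx4, Taf7l, Stk31 and Tdrkh were named after their values were seen. Mael, Slc25a31, Sycp3 and Tex101 were at background on every array.

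The promoter sequences of the network were searched for the E-box CACGTG, a palindrome that reads the same on both strands, in windows of 300 bases around the start sites (RefSeq, GRCm38.p6). Of the 10 members 9 matched an entry, Myc did not, and 3 held the motif (Max, Mnt and Mxd4), while 8.09% of 27025 genes and 7.15% of 32851 promoters of the same length did. Among the lists described here, it was held by 7 of 11 germ cell genes, 3 of 5 genes of the Mlx arm, 8 of 28 genes activated by Myc, 1 of 7 PRC1.6 genes, 2 of 14 stability genes, 1 of 12 corepressors, 1 of 17 coactivators and 0 of 8 genes repressed by Myc. The sites of the 3 members are shown because they are the letters that every dimer of the family reads. Those of Stag3, Taf7l and Stk31 are added as germ cell genes with the motif that were above background in all iPS cell lines. Dazl and Zcwpw1 were above background in those lines too and did not hold the motif. Mael, Slc25a31 and Sycp3 held it and were at background on every array. The E-box is in capitals, each window runs 5′ to 3′ on the gene's strand, and the windows lie at chr12:76962234-76962263 (minus strand), chr11:74830789-74830818 (plus), chr5:34187912-34187941 (minus), chr5:138280327-138280356 (plus), chrX:134476522-134476551 (minus) and chr6:49395472-49395501 (plus) in the order listed.
Max: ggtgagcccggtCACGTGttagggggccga
Mnt: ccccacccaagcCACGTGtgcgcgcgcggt
Mxd4: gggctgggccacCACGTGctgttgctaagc
Stag3: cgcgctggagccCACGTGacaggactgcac
Taf7l: accctcttatacCACGTGacagaactcgcc
Stk31: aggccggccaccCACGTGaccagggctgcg
The E-box of Max begins 3 bases before the start site, that of Mnt 123 and that of Mxd4 219 before it. The E-boxes of Stag3 and Taf7l begin 170 and 49 bases before theirs, and that of Stk31 55 or 120 before 2 annotated starts. The GC box GGGCGG, searched on both strands, was present in 8 of the 9 members, with Max as the exception, in 38.2% of all genes and 35.7% of all promoters, and in 60.0% to 87.5% of the genes of every list, so that it does not set the members apart from the lists. A match is a description of the letters and shows no binding.

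The Mlx and Mondo arm, a parallel network of Max-like proteins that senses glucose, and the regulators of Myc protein stability were examined in the same way. Of 4 tested genes of the Mlx arm, 2 were called higher, namely its targets Arrdc4, by 1.74, and Txnip, by 1.38, both regulators of glucose uptake. Of 11 tested stability genes, 4 were called higher and 1 lower. The medians were 0.875 for the Mlx arm and 0.60 for the stability genes. Both lists stand beside 13.4% called higher and 13.2% called lower over all genes. The kinase Aurka, which protects Mycn protein, was higher by 2.43, the deubiquitinases Usp28 and Usp7 by 2.17 and 1.81, and the F-box protein Skp2 by 1.55. The ubiquitin ligase Trim32, the lower gene, was named after its values were seen and differed by -1.15 (SE 0.19, adjusted p = 0.000208 from limma).

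Of 27 tested genes that Myc is known to activate, 19 were called higher and none lower against the MEFs, while Myc itself was not a call. The median of the list was 1.78, beside 0.03 for all genes, of which 13.4% were called higher and 13.2% lower. Tfrc, the transferrin receptor that takes up iron, gave 10.77, 10.44, 10.86 and 10.45 in lines #4, #7, #7.1 and #7.2, against 10.43 in the ES cells and 7.94 in the MEFs, a difference from the MEFs of 2.69 (SE 0.18, adjusted p = 1.43e-07 from limma). Rrp9, Ddx21 and Rrp12, which process ribosomal RNA, were higher by 2.54, 2.54 and 2.51. Of 8 tested genes that Myc is known to repress, 5 were called lower and none higher, with a median of -1.37. On the higher side were 2 of the 8, both under 2-fold and named after their values were seen. They were Gadd45a, by 0.82 (adjusted p = 0.00233 from limma), and Ndrg2, by 0.31 (adjusted p = 0.0987). The cell cycle inhibitor Cdkn2b gave 7.41, 7.72, 7.25 and 7.51 in the iPS cell lines, against 7.43 in the ES cells and 11.34 in the MEFs, a difference of -3.87 (SE 0.17, adjusted p = 4.83e-09 from limma). The matrix protein Thbs1, above background in 1 of the 4 iPS cell lines, was lower by a measured -2.75, the inhibitor Cdkn1a by -1.69, and the receptor Pdgfrb, which is also on the fibroblast marker list, was at least 2.92-fold lower. All 10 fibroblast markers fell beside these genes, and their part in the result was not tested.

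**Figure D3:**
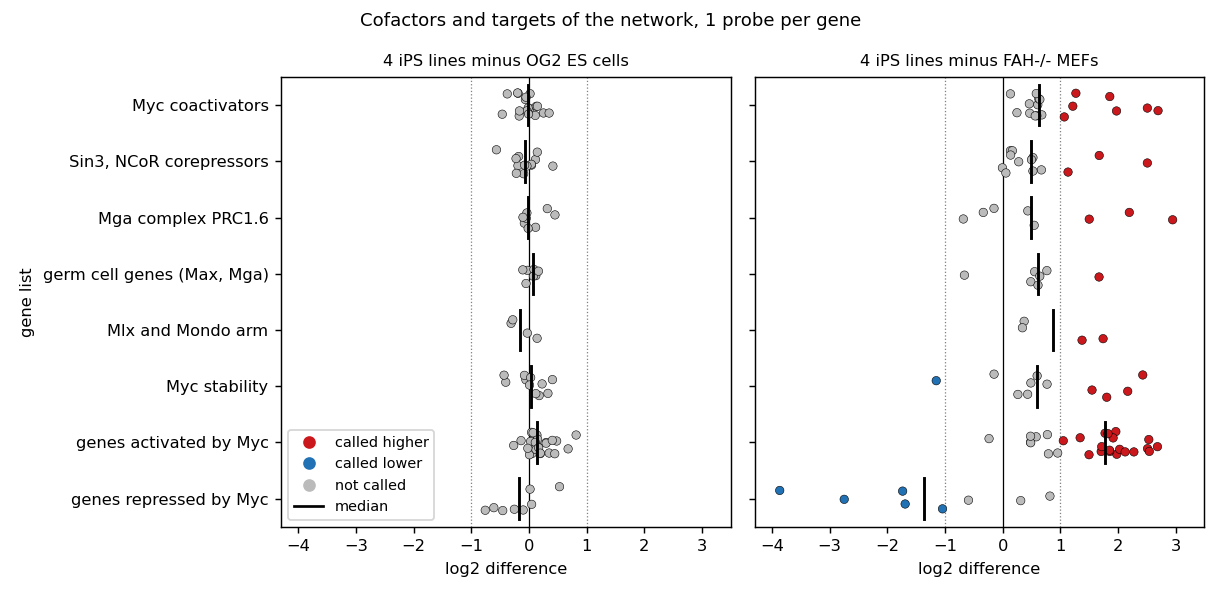
Log2 difference of the 4 iPS cell lines from the OG2 ES cells (left) and from the FAH-/- MEFs (right) for each tested gene of 8 lists (rows), with red for called higher, blue for called lower, grey for not called, a black bar at the list's median and dotted lines at 2-fold. Of 96 tested genes, 39 were called higher and 6 lower against the MEFs (13.4% and 13.2% over all genes), and none was called against the ES cells.

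Against the ES cells none of the 96 tested genes of these 8 lists was called by limma, beside 0.478% called higher and 0.578% called lower over 10032 genes, and 16 had an unadjusted p under 0.05, fewer by share than the 19.4% of all genes. Bop1 (0.82), Ppan (0.68), Gadd45a (-0.76) and Hdac1 (-0.57) had a limma adjusted p under 0.05 but were under 2-fold. The share of all genes at any fold was not counted in this comparison. The medians of the lists lay between -0.18 for the genes repressed by Myc and 0.14 for the genes activated by Myc, with 0.02 for all genes. Of the 27 activated genes, 24 were on the higher side in the iPS cell lines, as were 52.6% of all genes, and with median scaling 26 were, as were 65% of all genes.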

How the data were processed

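The authors hybridised amplified, biotin-labelled cRNA from 6 cultures to Illumina mouse-8 V2 BeadChips. The authors' deposited files hold probe intensity as exported from BeadStudio (version not given in the sources used here), and a table of background-subtracted, normalized intensity, used for the background level and as an alternative. Exported signals were corrected by normexp (offset 50), quantile normalized and expressed as log2 values with limma 3.58.1 in R 4.3.3. Background was the exported signal at an authors' value of 0, and noise was estimated from the probes below that level. Probes at background on every array of a comparison were not tested. One limma model held the 4 iPS cell lines, the MEFs and the ES cells (3 residual degrees of freedom), and a second set lines #7.1 and #7.2 against #4 and #7 (2 residual degrees), with Benjamini-Hochberg adjustment over all probes. The single MEF and ES cell arrays borrow the spread of the iPS cell lines, so p-values speak only for these cultures. Of 25697 probes 23978 name 1 gene and 1719 none. Where a whole group was at background, a fold used the lowest signal above background and is a bound that leaves out sampling error. Every member is named, with up to 4 called genes of each list by size of difference and 3 similar profiles. Members and lists were chosen with earlier results of these data known. The steps were tested on simulated data. Alternatives were median scaling, no background correction, the authors' values plus 50, no filter, 1 probe per gene, no fold threshold, lines #4 and #7 only, and leaving out each line.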

Additional observations from a re-analysis of the deposited data

Results flagged for a closer look

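The Mycl signal of line #4 lay apart from those of the other iPS cell lines, at 7.87 on the log2 scale, against 8.72 to 8.86 in lines #7, #7.1 and #7.2. Its gap to the nearest line was 0.854 of the range of the 4 lines, above Dixon's 95% critical value for 4 samples. With median scaling the signals were 7.90 in line #4 and 8.53 to 8.86 in the other lines, and the ratio of 0.654 was under that value. The other lines share a derivation. All 13 member probes were examined in this way and no other passed, none did with median scaling, and chance flags about 1 in 20 groups.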

How the results depend on the processing

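The calls of Mycl (1.67 to 2.21, highest adjusted p 0.00125) and Mxd4 (-2.02 to -1.27, highest adjusted p 9.05e-05) against the MEFs held under all 10 alternatives fitted for them. Without the fold threshold 4 member probes were called instead of 2. The number called was 2 against the MEFs and 0 in both other comparisons under every other alternative. Median scaling turned Mxi1 against the MEFs to -0.0352 and Mga against the ES cells to 0.0565, and lines #4 and #7 alone turned the second Mnt probe against the ES cells to -0.0025. Leaving out 1 line each gave -0.0954 to 0.0909 for Mga against the ES cells (-0.0462 without line #4, positive without line #7), and, for gene-corrected against uncorrected lines, -0.3816 to 0.0997 for the second Max probe (-0.31 without line #4, positive without line #7, at 0.0288, and without line #7.1) and -0.0459 to 0.1206 for Mxi1 (negative without line #4). None of these differences was a call. Over all probes the gene-corrected comparison gave 36 calls without line #7 (13 higher, 23 lower), 3 lower without line #7.1 and 0 otherwise. No paired analysis was possible because the groups share no line numbers. Median scaling moved 8 single-array signals by over 1 SD of the iPS cell lines. Single MEF and ES cell arrays limit the precision, and 3 member probes at background on every array give no level.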
